A study of Saccharomyces cerevisiae with 24 samples.

Results

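The comparison described here set heavy polysomes against monosomes in budding yeast lacking RPL22B, 1 of the 2 genes for the large-subunit ribosomal protein Rpl22. By their labels, with no measured value used, it takes in the 2 libraries of the heavy polysome fraction and the 2 libraries of the monosome fraction of the RPL22B deletion strain, 4 of the 24 libraries of the series. The series holds 3 strains (a wild type, a strain lacking RPL22A and a strain lacking RPL22B) and 4 RNA pools of each (input RNA, monosomes, light polysomes and heavy polysomes), in biological duplicates. All cells, controls included, were grown to log phase at an OD of 0.6 to 0.8 and treated with cycloheximide, the extracts were run on sucrose gradients, and the RNA is labelled as polyA RNA. The series title speaks of oxidative stress, but the labels name no stress treatment. The sources do not say whether each deletion strain is 1 clone, and they give no parent strain.

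Cycloheximide stops elongating ribosomes where they are, so that a sucrose gradient sorts mRNAs by the number of ribosomes they carry. An mRNA with a single ribosome runs with the monosomes, and an mRNA with many ribosomes runs with the heavy polysomes. The number of ribosomes on an mRNA depends on how often translation starts, how fast ribosomes move and how long the reading frame is, and a very short frame has room for only a few of them. Values below are log2 ratios of an mRNA's level in heavy polysomes to its level in monosomes, each scaled to its own library, so that 0 is the ratio of the typical mRNA. The amount of RNA in each fraction is not known from these values. RNA came from whole cultures, so that more copies per cell and more cells with the mRNA in a fraction cannot be told apart.

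Sequences of the very short frames at the monosome end of the comparison are shown first, because their length sets the room for ribosomes. They were read from the RefSeq R64 genome, 5′ to 3′ on the coding strand, with the start and stop codons in capitals. RPL41A and RPL41B encode the same class of very small large-subunit protein of 25 residues, OST4 a small subunit of the oligosaccharyltransferase of the endoplasmic reticulum, and TOM5 a small subunit of the import pore of the mitochondrial outer membrane. RPL41A lies at chrIV:130407-130484 (minus strand), RPL41B at chrIV:221724-221801 (minus strand), OST4 at chrIV:38487-38597 (plus strand) and TOM5 at chrXVI:797557-797709 (plus strand), and each of the 4 frames is a single coding exon.
RPL41A: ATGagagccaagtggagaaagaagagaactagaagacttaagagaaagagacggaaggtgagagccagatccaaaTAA
RPL41B: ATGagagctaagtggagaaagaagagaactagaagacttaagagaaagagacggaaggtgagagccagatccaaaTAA
OST4: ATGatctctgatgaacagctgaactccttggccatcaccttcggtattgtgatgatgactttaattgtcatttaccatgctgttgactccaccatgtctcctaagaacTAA
TOM5: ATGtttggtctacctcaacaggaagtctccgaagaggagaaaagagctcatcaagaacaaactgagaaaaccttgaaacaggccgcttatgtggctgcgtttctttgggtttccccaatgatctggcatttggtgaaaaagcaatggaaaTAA
The frames of RPL41A and RPL41B differ at 1 of 78 bases (98.7% identity), and no source used here says how reads matching both were counted, so that the split of counts between these 2 genes is uncertain.

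The 4 libraries held 7767731 and 8080294 counts (heavy polysomes) and 9951761 and 10947937 counts (monosomes). Rows of the ribosomal DNA took 92.7% and 90.0% of them in heavy polysomes and 95.3% and 97.1% in monosomes, which left 569664 and 805795 counts and 468906 and 314212 counts for all other genes. The duplicates correlated across genes with r = 0.953 in heavy polysomes and 0.928 in monosomes, on log2 CPM (CPM is a gene's count relative to its library's TMM-scaled total). Monosome replicate 1 was slightly closer to wild-type monosome replicate 1 (r = 0.932) than to its own duplicate. RPL22B had 0 counts in all 8 libraries of the deletion strain, where a count of 0 allows up to 3 counts in a library, against 1329 counts over the 8 wild-type libraries. The RPL22A row was also low, with 40 counts over the 8 libraries of the RPL22B deletion and 25 over those of the wild type. Since it was this low in the wild type too, the row may not measure RPL22A, and nothing is read from it. Of the alpha-specific genes, MF(ALPHA)1, the gene for a mating pheromone, had 16785 counts over the 8 libraries of the RPL22B deletion and 11 in the wild type, whereas the a-specific gene MFA2 had 4 and 2683, so that the deletion and the wild-type strain differed in mating type as well as at RPL22B.

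Within the RPL22B deletion, 429 mRNAs were higher in heavy polysomes and 421 were lower, that is higher in monosomes, of 5258 tested (8.16% and 8.01%, together 16.2%; edgeR's quasi-likelihood test, Benjamini-Hochberg adjusted p under 0.05). The mRNAs that rose towards heavy polysomes included those for glycolytic enzymes, aminoacyl-tRNA synthetases, chaperones and very long proteins. The mRNAs that fell included those for the smallest ribosomal proteins, small mitochondrial and endoplasmic reticulum subunits, mitochondrially encoded mRNAs and the transcription factor GCN4. Larger differences were mostly on the monosome side, where 137 called mRNAs differed by at least 4-fold, against 38 on the heavy side. In all 850 called genes the 2 heavy libraries lay on the same side of both monosome libraries, but so did those of 61.4% of all tested genes, so that this separation alone is not distinctive. The number of calls depended on each of the 4 libraries. It was 447 without heavy replicate 1, 274 without heavy replicate 2, 254 without monosome replicate 1 and 437 without monosome replicate 2, in fits where the remaining library of the pair was taken to vary like the other groups.

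The ratio went with protein length. Of 174 tested mRNAs for proteins of up to 100 residues, 73 fell and 0 rose (42.0% lower, against 8.01% of all tested genes), with a median log2 ratio of -1.23. The median was -0.49 for 672 mRNAs of over 100 and up to 200 residues, -0.17 for 1597 of up to 400, 0.05 for 1624 of up to 700, 0.34 for 650 of up to 1000 and 0.77 for 475 of over 1000 residues. In the longest class 87 mRNAs rose and 1 fell (18.3% higher, against 8.16% of all tested genes). The median therefore went up at every step of length, while the quartiles of neighbouring classes overlapped.

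**Figure D1:**
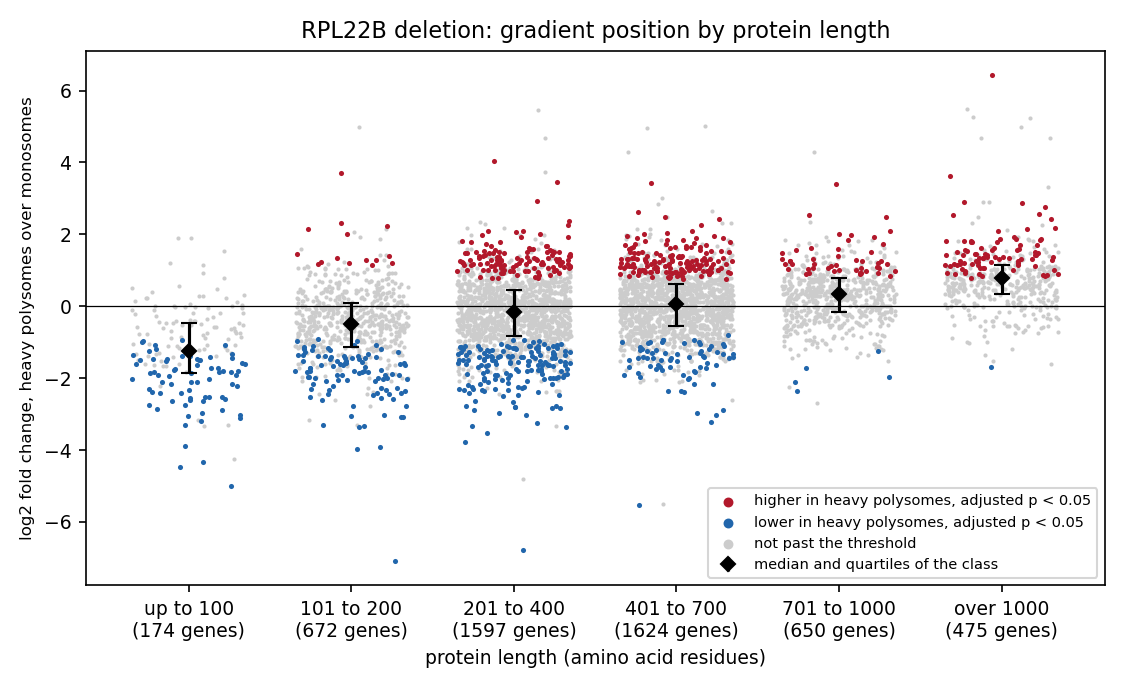
Log2 fold change of heavy polysomes over monosomes in the RPL22B deletion (vertical axis) for each tested gene, by class of protein length in residues (horizontal axis). Diamonds are class medians with quartiles, which climb from -1.23 to 0.77, and coloured points are genes with an adjusted p under 0.05.

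Across 5192 tested genes with a reading frame, length and the log2 ratio had a Spearman correlation of 0.39. Genes are not independent replicates and share the same 4 libraries, so that this is a description. It was 0.38 without the cytosolic ribosomal protein genes, an alternative added after the data were seen. The 4 pairings of a heavy with a monosome library gave 0.290 to 0.395, which is the spread that single libraries allow. Leaving out heavy replicate 2 gave 0.32, the lowest value of the 4 fits with a library left out.

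The shortest and the longest frames showed the same order gene by gene. RPL41B had 320.5 and 317.6 CPM in the heavy libraries and 3799 and 5610 CPM in the monosome libraries. The monosome values were higher in both replicates and far from overlapping, with a log2 ratio of -3.88 ± 0.64 (SE; adjusted p = 0.00018, edgeR). RPL41A had 988 and 505 CPM in heavy polysomes and 4571 and 4431 CPM in monosomes, a log2 ratio of -2.59 ± 0.59, and its call was lost without heavy replicate 2 (edgeR adjusted p = 0.086).

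Among the other shortest tested frames, YDR524W-C was at 207 and 196 CPM in heavy polysomes and 387 and 420 CPM in monosomes (log2 ratio -1.0), close to the threshold with an adjusted p of 0.046 (edgeR), and lost its call in each of the 4 fits without 1 library, where its adjusted p reached 0.21. YHR022C-A, with a frame of 29 residues, was at 20.3 and 19.3 CPM against 27.8 and 27.0 CPM and did not pass the test. At the long end, REA1, for a giant ATPase of ribosome assembly of 4910 residues, was at 129.8 and 120.2 CPM in heavy polysomes and 51.3 and 81.0 CPM in monosomes. Its log2 ratio of 0.94 ± 0.41 did not pass (edgeR adjusted p = 0.12), nor did those of DYN1, the dynein heavy chain, and TRA1, a scaffold of histone acetyltransferase complexes, at 0.93 and 0.89. Of all tested genes 61.4% did not overlap between the fractions, in either direction, so that such a separation is not particular to long frames. All 5 of the longest frames were higher in both heavy libraries than in both monosome libraries. Of them VPS13, for a lipid transfer protein, and TOM1, for a ubiquitin ligase, passed with log2 ratios of 1.32 and 1.36, but lost their calls without heavy replicate 2 and without monosome replicate 1, TOM1 also without either of the other libraries (edgeR adjusted p up to 0.30 and 0.24).

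OST4 and TOM5 were among the 10 largest falls. OST4 was at 16.2 and 28.2 CPM in heavy polysomes and 212 and 168 CPM in monosomes, with no overlap and a log2 ratio of -3.06 ± 0.42 (edgeR adjusted p = 2.14e-05). TOM5 was at 54.8 and 32.7 CPM against 502 and 345 CPM, a log2 ratio of -3.31 ± 0.36 (edgeR adjusted p = 5.93e-07). Both kept their call in every fit that left out 1 of the 4 libraries. COA2, for an assembly factor of cytochrome c oxidase with 68 residues, fell likewise, from 197 and 165 CPM in monosomes to 20.3 and 19.3 CPM in heavy polysomes.

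Not every large fall belonged to a very short frame. RPS26A, for a small-subunit ribosomal protein of 119 residues (chrVII:148229-148588), had 811 and 613 CPM in heavy polysomes and 12477 and 9827 CPM in monosomes, a log2 ratio of -3.97 ± 0.43 (edgeR adjusted p = 5.93e-07). ERG2, for the sterol isomerase of ergosterol synthesis with 222 residues, had 124 and 160 CPM against 1312 and 1011 CPM (log2 ratio -3.03 ± 0.44). LDB18, for a dynactin subunit of 179 residues, had 26.4 and 17.8 CPM against 200.9 and 165 CPM (log2 ratio -3.08 ± 0.53). In each of these 3 genes both monosome libraries lay several-fold above both heavy ones, and the calls of all 3 held in the 4 fits without 1 library.

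**Figure D2:**
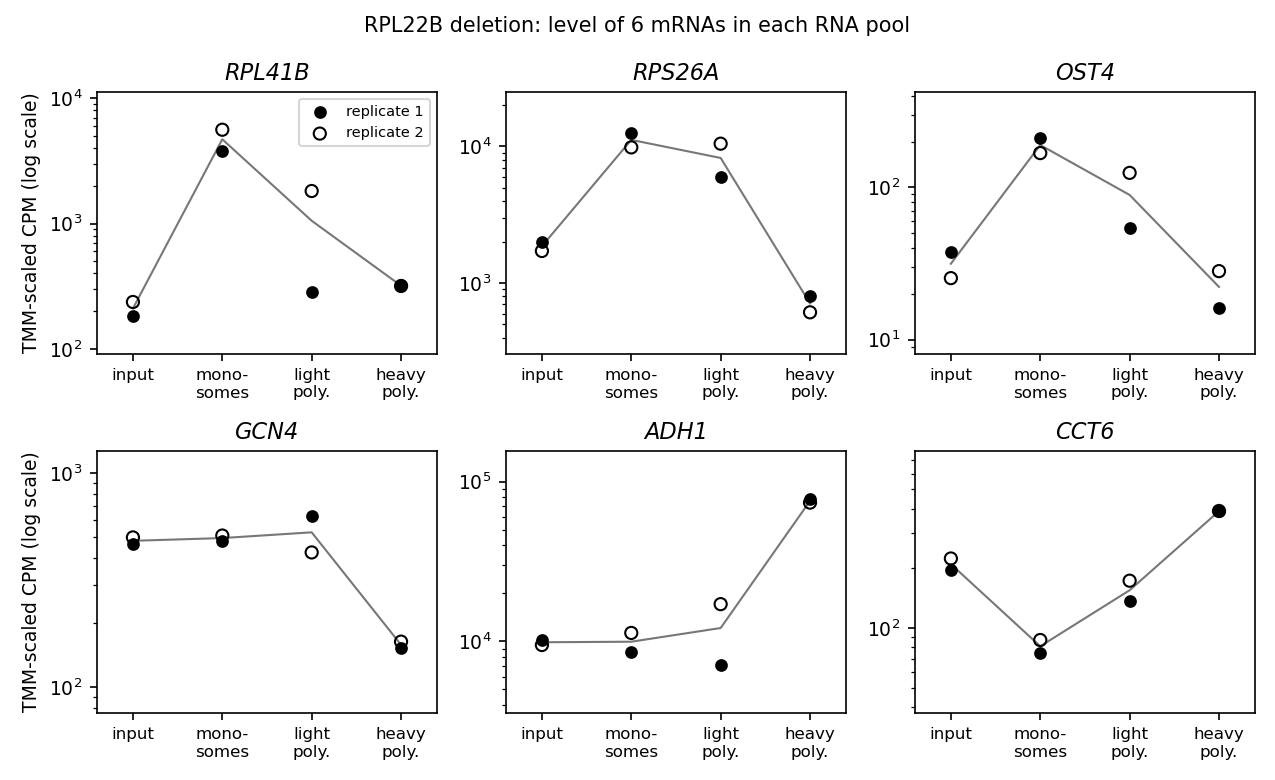
Level of 6 mRNAs in the 4 RNA pools of the RPL22B deletion strain (TMM-scaled CPM, log axis), with 1 point per library and a line through the means of the 2 replicates. RPL41B, RPS26A and OST4 have their highest mean in monosomes, GCN4 is low in heavy polysomes alone, and ADH1 and CCT6 have their highest mean in heavy polysomes.

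Cytosolic ribosomal protein mRNAs divided by length. Of 78 tested large-subunit genes 23 fell and 3 rose, with a median log2 ratio of -0.42, and of 57 small-subunit genes 12 fell and 1 rose, with a median of -0.28. The median of all tested genes was 0, and 8.01% of them fell. The 78 include the deleted RPL22B, which had 0 counts in all 4 libraries and so no ratio, and without it, an alternative added after the data were seen, the large-subunit median was -0.43. Taken by size, 14 of 19 ribosomal protein mRNAs of up to 100 residues fell (median log2 ratio -1.84), 20 of 88 with over 100 and up to 200 residues fell (median -0.44), and of 28 with over 200 and up to 400 residues 4 rose and 1 fell (median 0.40). Across the 135 ribosomal protein genes the Spearman correlation of length and log2 ratio was 0.64, again as a description. Of the called genes 10 of 26 in the large-subunit list and 7 of 13 in the small-subunit list held in all 4 fits without 1 library. The calls rest on counts that paralogs with nearly the same sequence may share.

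RPS29A and RPS29B, a paralog pair for a zinc-binding small-subunit protein of 56 residues, both fell. RPS29B went from 1160 and 1299 CPM in monosomes to 170 and 144 CPM in heavy polysomes (log2 ratio -2.97 ± 0.40; edgeR adjusted p = 1.26e-05), and RPS29A had a log2 ratio of -2.57 ± 0.43. RPL37B, RPL43B and RPL35A, for large-subunit proteins of 88, 92 and 120 residues, had log2 ratios of -2.52, -2.76 and -2.54. RPS28A, of 67 residues, stood at -2.64. All 6 genes were higher in both monosome libraries than in both heavy ones.

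The 4 ribosomal protein genes that rose, named after their values were seen, encode larger proteins. RPL4A and RPL4B, for a large-subunit protein of 362 residues, had mean levels of 2633 ± 344 CPM and 1353 ± 200.8 CPM in heavy polysomes and 929 ± 100.5 CPM and 483 ± 59.9 CPM in monosomes (SD, n = 2). Their log2 ratios were 1.5 ± 0.33 and 1.48 ± 0.30, and both calls held in the 4 fits without 1 library. RPP0, the anchor protein of the ribosomal stalk, rose by a log2 ratio of 1.23 and ASC1, the ribosome-bound scaffold of the small subunit, by 1.52. Their calls were less secure: RPP0 lost its call without heavy replicate 1 and without either monosome library (edgeR adjusted p up to 0.094), and ASC1 without any of the 4 libraries (adjusted p up to 0.13).

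Glycolysis and fermentation, the route by which yeast turns glucose into ethanol, was the list furthest towards heavy polysomes. Of 25 tested genes 15 rose and 0 fell (60.0% higher, against 8.16% of all tested genes), with a median log2 ratio of 1.11. The lists differed widely in level, and a gene of low level passes the test less easily. The median gene averaged 2221 CPM over the 4 libraries in this list and 320 CPM in that of the aminoacyl-tRNA synthetases. It averaged 20.6 CPM among cell cycle regulators. The part of level in the called shares of this and the other lists was not tested. ADH1, for the main alcohol dehydrogenase of fermentation (chrXV:159548-160594), was at 77464 and 73873 CPM in heavy polysomes and at 8596 and 11276 CPM in monosomes. Both heavy libraries lay far above both monosome libraries, and the log2 ratio was 2.93 ± 0.47 (edgeR adjusted p = 0.00013).

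ADH2, for the glucose-repressed alcohol dehydrogenase (chrXIII:873291-874337), was at 7635 and 4982 CPM in heavy polysomes and 385 and 387 CPM in monosomes (log2 ratio 4.03 ± 0.49; edgeR adjusted p = 3.16e-06). The frames of ADH1 and ADH2 are both 1047 bases long and differ at 117 of them (88.8% identity), so that reads of the far more abundant ADH1 may have been counted in the ADH2 row. The part of such reads in the ADH2 value was not tested. GLK1, for glucokinase, was at 402 and 381 CPM against 128 and 99.0 CPM (log2 ratio 1.77 ± 0.32), and its reading frame overlaps that of YCL042W. PFK1, for a subunit of phosphofructokinase, was at 763 and 895 CPM against 382 and 309 CPM (log2 ratio 1.26 ± 0.27). For these 4 genes the call held in all 4 fits without 1 library. The other 11 calls of the list were lost in at least 1 of these fits, although the mean levels of PGK1, ENO2, TDH3 and FBA1, all chosen after their values were seen, differed by log2 ratios of 1.15 to 1.48.

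The aminoacyl-tRNA synthetases and most translation factors, unlike most ribosomal proteins, lay on the same side. Of 22 tested aminoacyl-tRNA synthetase genes, whose products load amino acids onto tRNA, 16 rose and 0 fell (median log2 ratio 0.93), against 8.16% of all tested genes. THS1, for threonyl-tRNA synthetase, was at 801 and 1061 CPM in heavy polysomes and 288 and 363 CPM in monosomes (log2 ratio 1.52 ± 0.29; edgeR adjusted p = 0.00101), and HTS1, for histidyl-tRNA synthetase, was at 278 and 324 CPM against 143 and 108 CPM (log2 ratio 1.25 ± 0.26). ARC1, a cofactor that binds tRNA for the methionyl and glutamyl enzymes, had a log2 ratio of 1.26 ± 0.26. In all 3 the heavy libraries were the higher ones without overlap.

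Of 29 tested initiation factor genes 8 rose and 0 fell (median log2 ratio 0.68), and of 18 elongation and termination factor genes 7 rose and 0 fell (median 0.85). The higher shares are 27.6% and 38.9%, against 8.16% of all tested genes. TIF3, for initiation factor eIF4B, was at 785 and 896 CPM in heavy polysomes and 284 and 237 CPM in monosomes (log2 ratio 1.69 ± 0.27; edgeR adjusted p = 0.00013). PAB1, for the poly(A)-binding protein, and DED1, for an RNA helicase of start site scanning, rose by log2 ratios of 1.62 ± 0.30 and 1.63 ± 0.34. TEF2, 1 of 2 genes for elongation factor eEF1A, rose from 1932 and 1719 CPM to 5142 and 5437 CPM (log2 ratio 1.53 ± 0.32), with counts that its near-identical copy TEF1 may share. The shortest members named here, chosen after their values were seen, did not follow: SUI1, for the start codon factor eIF1 of 108 residues, had a log2 ratio of -0.81 ± 0.40, and TIF11, for eIF1A of 153 residues, of -0.30 ± 0.39, neither past the threshold. Calls that held in all 4 fits without 1 library numbered 4 of 16 for the synthetases, 4 of 8 for initiation and 1 of 7 for elongation and termination.

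**Figure D3:**
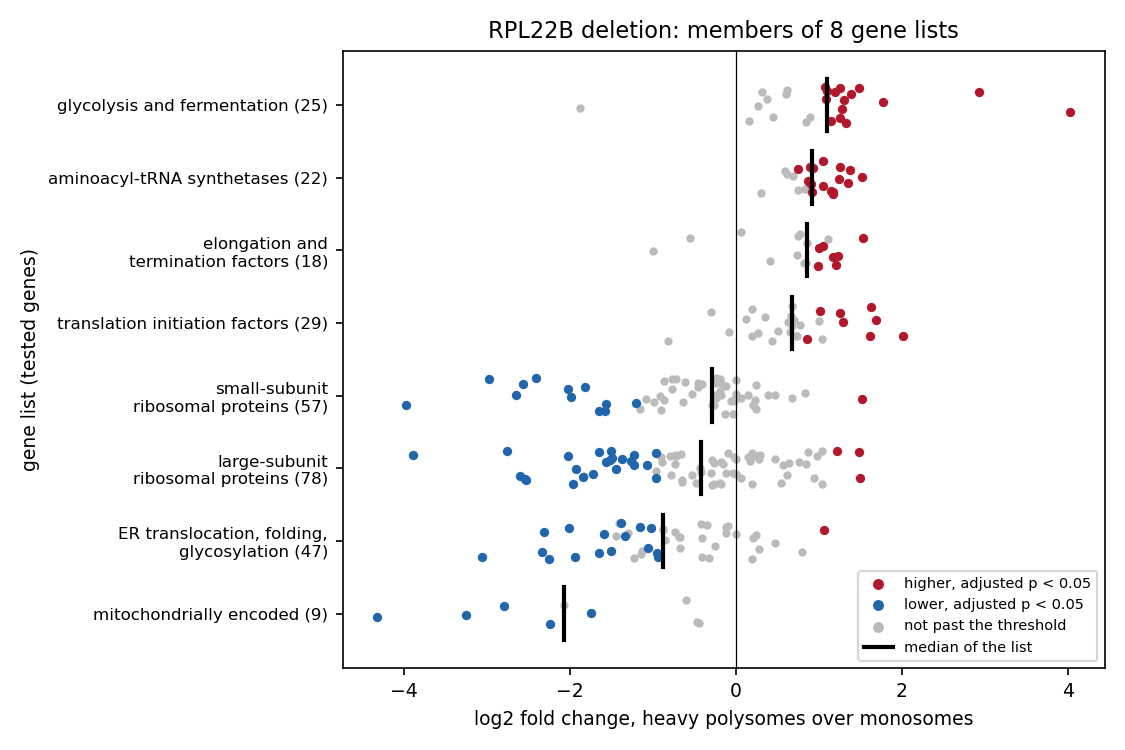
Log2 fold change of heavy polysomes over monosomes (horizontal axis) for every tested member of 8 gene lists (rows), with the number of tested genes in brackets. Black bars are list medians, from -2.07 for mitochondrially encoded genes to 1.11 for glycolysis and fermentation, and coloured points have an adjusted p under 0.05.

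Chaperones, the proteasome and ribosome assembly factors also leaned towards heavy polysomes. Of 41 tested chaperone genes 14 rose and 0 fell (median log2 ratio 0.76), of 33 proteasome subunits 11 rose and 0 fell (median 0.57), and of 125 ribosome assembly factors 21 rose and 1 fell (median 0.56). These are 34.1%, 33.3% and 16.8% higher, against 8.16% of all tested genes. CCT6, for a subunit of the ring-shaped chaperonin that folds actin and tubulin, was at 387 and 389 CPM in heavy polysomes and 74.8 and 87.0 CPM in monosomes. The replicates lay close together within each fraction, and the log2 ratio was 2.27 ± 0.29 (edgeR adjusted p = 5.73e-06). NOP1, for the methyltransferase fibrillarin of the nucleolus, was at 755 and 809 CPM against 194 and 174 CPM (log2 ratio 2.08 ± 0.28; edgeR adjusted p = 1.26e-05). RPT2, for an ATPase of the proteasome base, was at 150 and 134 CPM against 32.0 and 51.0 CPM (log2 ratio 1.8 ± 0.31). Of the called genes 3 of 14, 2 of 11 and 1 of 22 in these lists held in all 4 fits without 1 library.

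Amino acid synthesis gave 16 higher and 2 lower of 73 tested genes (median log2 ratio 0.52), and purine synthesis 3 higher and 0 lower of 20 (median 0.55). The higher shares are 21.9% and 15%, against 8.16% of all tested genes, and that of purine synthesis rests on 3 genes. PRO2, for an enzyme of proline synthesis, was at 199 and 251 CPM in heavy polysomes and 53.4 and 63.0 CPM in monosomes (log2 ratio 1.96 ± 0.31; edgeR adjusted p = 0.00013). The 2 lower genes were LEU9, for an isoenzyme of leucine synthesis, and HIS3, of histidine synthesis, both named after their values were seen, with log2 ratios of -1.44 and -0.99. LEU9 lost its call without monosome replicate 1 (edgeR adjusted p = 0.0996), and HIS3 without either heavy library and without monosome replicate 1 (adjusted p up to 0.43).

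GCN4, which encodes the transcription factor that switches on amino acid synthesis genes, stood apart from those targets. Its leader carries 4 short upstream reading frames that together, though not each in the same way, hold back translation of the GCN4 frame in well-fed cells. They are shown because they are the known feature of this mRNA that bears on its ribosome load. They were read on the minus strand of RefSeq R64, 5′ to 3′, with start and stop codons in capitals, and start 361, 293, 176 and 151 bases before the GCN4 start codon.
GCN4 upstream frame 1 (chrV:140113-140124): ATGgcttgcTAA
GCN4 upstream frame 2 (chrV:140048-140056): ATGtgtTAA
GCN4 upstream frame 3 (chrV:139928-139939): ATGtacccgTAG
GCN4 upstream frame 4 (chrV:139903-139914): ATGtttccgTAA
GCN4 itself (chrV:138918-139763, 281 residues) was at 152 and 163 CPM in heavy polysomes and at 483 and 510 CPM in monosomes. The replicates lay close together, the fractions did not overlap, and the log2 ratio was -1.65 ± 0.30 (edgeR adjusted p = 0.00047), a call that held in all 4 fits without 1 library. Input stood at 464 and 500 CPM and light polysomes at 630 and 425 CPM, so that the low values were those of the heavy fraction. The log2 ratio was -1.68 in the wild type and -1.50 in the RPL22A deletion.

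Of 10 tested mRNAs with known upstream frames or stalled translation GCN4 was the 1 that passed the test, and 0 rose. That is 10% lower, against 8.01% of all tested genes. HAC1, for the transcription factor of the unfolded protein response, whose unspliced mRNA is known to hold stalled ribosomes, was at 2142 and 2275 CPM in heavy polysomes and 1652 and 2133 CPM in monosomes. Its log2 ratio of 0.22 ± 0.36 did not pass (edgeR adjusted p = 0.72). CPA1, for a subunit of carbamoyl phosphate synthetase controlled by an arginine-sensing upstream frame, was at 54.8 and 57.9 CPM against 49.2 and 54.0 CPM (log2 ratio 0.14 ± 0.33). The levels of both mRNAs in the 2 fractions were close to each other, with intervals wide enough to hold differences in either direction.

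mRNAs of the endoplasmic reticulum were shifted towards monosomes although most encode proteins that are not short. Of 47 tested genes for translocation, folding and glycosylation there, 16 fell and 1 rose (34% lower, against 8.01% of all tested genes), with a median log2 ratio of -0.88. Of the 9 genes listed here for subunits of the oligosaccharyltransferase, which attaches sugars to nascent proteins, 8 were tested and 6 fell. Their log2 ratios ran from -3.06 for OST4 to 0.01 for STT3, the catalytic subunit, which was named after its values were seen.

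SWP1, a subunit of 286 residues, was at 28.4 and 53.4 CPM in heavy polysomes and 154 and 186 CPM in monosomes (log2 ratio -2.01 ± 0.31; edgeR adjusted p = 0.00011). OST6, of 332 residues, was at 12.2 and 25.2 CPM against 91.9 and 93.0 CPM (log2 ratio -2.24 ± 0.37). SBH1, for the small beta subunit of the Sec61 channel, was at 50.7 and 32.7 CPM against 147 and 168 CPM (log2 ratio -1.94 ± 0.34), whereas SEC61 itself, for the pore subunit and likewise chosen afterwards, had a log2 ratio of 0.24 ± 0.30 and did not pass. The 1 gene that rose, SRP54, for a subunit of the cytosolic signal recognition particle, had a log2 ratio of 1.07 and was named after its values were seen. SRP54 lost its call without heavy replicate 2 and without either monosome library (edgeR adjusted p up to 0.097), and 5 of the 17 calls of the list held in all 4 fits without 1 library. SWP1, OST6, SBH1 and OST4 were among those 5.

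A hydrophobic stretch was common in that list. Of the 47 genes 38 encode at least 1 window of 19 residues with a mean Kyte-Doolittle hydropathy of 1.6 or more. This scale is used to find segments spanning a membrane. Of all tested nuclear genes 1544 had such a window and 3639 did not. Other lists rich in windows differed in their medians. All 66 tested plasma membrane transporters had a window (median log2 ratio -0.11), as did 34 of 49 cell wall genes (0.14). So did 19 of 25 iron regulon genes (-0.38) and 12 of 17 phosphate regulon genes (-0.69). The split by window was chosen after the data were seen, and was then made over all nuclear genes within classes of length. Among proteins of over 200 and up to 400 residues, 408 genes with such a window had a median log2 ratio of -0.68, with 19 higher and 96 lower, and 1184 genes without one had a median of -0.04, with 103 higher and 62 lower. Among those of over 400 and up to 700 residues, 547 genes with a window had a median of -0.28, with 21 higher and 45 lower, and 1076 without one had a median of 0.22, with 135 higher and 26 lower. The higher shares with and without a window were 4.66% and 8.70% in the shorter class and 3.84% and 12.5% in the longer. The lower shares were 23.5% and 5.24%, and 8.23% and 2.42%. Of all tested genes 8.16% were higher and 8.01% lower. In the class of up to 100 residues the order was the other way, at -1.07 with and -1.31 without a window. Over 1000 residues the medians were 0.67 and 0.83.

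The 4 pairings of a heavy with a monosome library each gave a lower median with than without a window, by 0.43 to 0.59 on the log2 scale in the class of up to 400 residues and by 0.35 to 0.46 in that of up to 700 residues. With a stricter window mean of 2.0 the medians of all genes in these classes differed by -0.86 and -0.69. With the window mean of 1.6 and the endoplasmic reticulum list left out, they differed by -0.60 and -0.50. Genes of a class share libraries and are not replicates, so that no test was made of these differences. Which of these windows span a membrane was not tested.

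**Figure D4:**
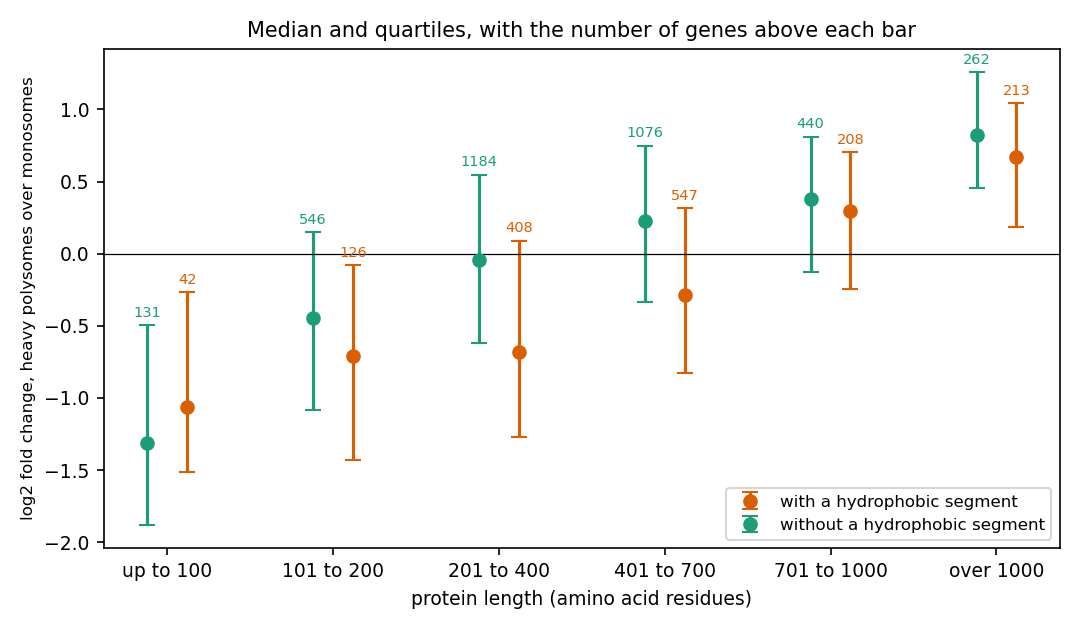
Median log2 fold change of heavy polysomes over monosomes, with quartiles as bars, for nuclear genes with and without a hydrophobic window of 19 residues, by class of protein length. The gap is widest in the class of over 200 and up to 400 residues (-0.68 with and -0.04 without a window) and the order is reversed at up to 100 residues.

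Mitochondrially encoded mRNAs, which are translated inside mitochondria by mitochondrial ribosomes, had the lowest median of the lists apart from the a-specific genes, which were near 0 counts in this strain: of 9 tested genes 5 fell and 0 rose, with a median log2 ratio of -2.07. That is 55.6% lower, against 8.01% of all tested genes. OLI1, for the membrane ring subunit of ATP synthase with 76 residues, was at 12.2 and 14.8 CPM in heavy polysomes and 209 and 345 CPM in monosomes. The fractions did not overlap, and the log2 ratio of -4.32 ± 0.55 was the largest fall among called genes averaging 50 CPM or more (edgeR adjusted p = 5.64e-06). COX2, for a subunit of cytochrome c oxidase, was at 28.4 and 25.2 CPM against 164 and 207 CPM (log2 ratio -2.79 ± 0.50), and its row overlaps that of Q0255. The OLI1 and COX2 calls held in all 4 fits without 1 library, while those of ATP6, COX3 and SCEI did not (adjusted p up to 0.16, 0.18 and 0.12).

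Nuclear genes for mitochondrial proteins were nearer to the typical mRNA. Of 35 tested subunits of the respiratory chain and ATP synthase 3 fell and 0 rose (median log2 ratio -0.36), and of 74 mitochondrial ribosomal proteins 11 fell and 1 rose (median -0.45). The lower share was 8.57% for the first list, about the 8.01% of all tested genes, and 14.9% for the second. MRPL39, of 70 residues, was at 16.2 and 23.7 CPM in heavy polysomes and 124 and 117 CPM in monosomes (log2 ratio -2.56 ± 0.49; edgeR adjusted p = 0.00083), and MRPL36, of 177 residues, at 54.8 and 47.5 CPM against 199 and 186 CPM (log2 ratio -1.92 ± 0.33). Of 21 tested genes of the tricarboxylic acid cycle, the central oxidative pathway of the mitochondrial matrix, 6 rose and 1 fell (median 0.57). The shares are 28.6% and 4.76%, against 8.16% and 8.01% of all tested genes. Of these tricarboxylic acid cycle calls 0 of 7 held in all 4 fits without 1 library.

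Of 15 tested subunits of the vacuolar ATPase, the proton pump of the vacuole, 3 rose, 2 fell and 10 did not pass, and of 31 RNA polymerase subunits 4 rose, 4 fell and 23 did not. The shares are 20% and 13.3% for the first list and 12.9% each way for the second, against 8.16% and 8.01% of all tested genes. VMA2, of 517 residues, rose from 581 and 477 CPM in monosomes to 1142 and 1380 CPM in heavy polysomes (log2 ratio 1.25 ± 0.27; edgeR adjusted p = 0.0026). VMA7, of 118 residues, fell from 200.9 and 225 CPM to 58.8 and 63.8 CPM (log2 ratio -1.79 ± 0.31), and VMA9, of 73 residues, had a log2 ratio of -2.34 ± 0.48. RPO21, the largest subunit of RNA polymerase II with 1733 residues, had a log2 ratio of 1.44 ± 0.30 and RPB11, of 120 residues, -1.73 ± 0.36. RPO21 lost its call without monosome replicate 1 (edgeR adjusted p = 0.0502), while those of VMA2, VMA7, VMA9 and RPB11 held in all 4.

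Of 35 tested oxidant defence genes 6 rose and 2 fell (17.1% and 5.71%, against 8.16% and 8.01% of all tested genes; median log2 ratio 0.43). Of 38 general stress genes 3 rose and 2 fell (7.89% and 5.26%; median 0.28), shares no higher than those of all tested genes. TRR1, for cytosolic thioredoxin reductase, was at 947 and 1014 CPM in heavy polysomes and 432 and 372 CPM in monosomes (log2 ratio 1.28 ± 0.30; edgeR adjusted p = 0.0038). TPS1, for trehalose phosphate synthase, was at 122 and 132 CPM against 49.2 and 30.0 CPM (log2 ratio 1.64 ± 0.34). Of 26 tested cell cycle regulators 0 rose and 0 fell (edgeR; median 0.02). The general stress genes and the cell cycle regulators were of low level, with medians of 19.8 and 20.6 CPM, which limits the calls in both lists.

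The mRNAs stood in a similar order in the other strains, which share no library with the RPL22B deletion. Across 5258 genes the log2 ratio of the RPL22B deletion correlated with that of the wild type with a Pearson r of 0.71 and with that of the RPL22A deletion with 0.67, as a description across genes. Of the 850 genes called in the RPL22B deletion 841 had the same sign in the wild type and 828 in the RPL22A deletion. Called genes are those with a clear ratio, and the share of same signs over all tested genes was not worked out. The wild type had 1244 calls (23.7% of tested genes), 604 higher (11.5%) and 640 lower (12.2%), and the RPL22A deletion had 1432 (27.2%), 780 higher (14.8%) and 652 lower (12.4%). The mRNAs that rose in both the RPL22B deletion and the wild type numbered 311, 72.5% of those of the deletion and 51.5% of those of the wild type, and those that fell in both numbered 304, 72.2% and 47.5%.

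The difference of the ratios between strains was then tested for each gene. Against the wild type 0 of 5258 genes passed (edgeR), with 143 at an unadjusted p under 0.05 (2.72%), and DESeq2 called 1. Against the RPL22A deletion 0 passed as well (edgeR), with 342 at an unadjusted p under 0.05 (6.5%), and DESeq2 called 5. With 2 libraries a group these tests do not show that the strains have equal ratios. All 7 a-specific genes listed here had fewer counts over the 8 libraries of the RPL22B deletion (2 to 36) than over those of the wild type (57 to 2683), and all 4 alpha-specific genes had more (606 to 16785, against 5 to 68). The part of this strain difference in the comparison with the wild type was not tested.

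The gene with the smallest p against the wild type was SHB17, for a bisphosphatase that feeds the pentose phosphate pathway. It was at 473 and 560 CPM in heavy polysomes and 199 and 261 CPM in monosomes of the RPL22B deletion, and at 48.3 and 25.9 CPM in heavy polysomes and 88.2 and 92.3 CPM in monosomes of the wild type. The heavy libraries were thus the higher ones in the deletion and the lower ones in the wild type. The log2 ratios were 1.17 and -1.28, and their difference of 2.46 ± 0.48 missed the threshold (edgeR adjusted p = 0.091). It passed in 4 other settings, DESeq2 (adjusted p = 0.022), no low-count filter (0.0039), a fit of the compared groups alone (0.012) and a block with crossed wild-type numbers (0.045). In the RPL22A deletion, whose mating type genes are those of the RPL22B deletion, SHB17 had a log2 ratio of 0.92. The heavy to monosome call of SHB17 within the RPL22B deletion was lost without heavy replicate 2 and without monosome replicate 1 (edgeR adjusted p up to 0.14).

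Against the RPL22A deletion the smallest p was that of CCW12, for an abundant mannoprotein of the cell wall. CCW12 was at 1984 and 1210 CPM in heavy polysomes and 767 and 903 CPM in monosomes of the RPL22B deletion, and at 1905 and 2647 CPM in heavy polysomes and 5828 and 8782 CPM in monosomes of the RPL22A deletion. The 2 deletions thus had like levels in heavy polysomes, and the RPL22A deletion had the higher monosome levels. The difference of the log2 ratios, 0.94 against -1.68, was 2.62 ± 0.54 and did not pass (edgeR adjusted p = 0.18), but passed with DESeq2 (adjusted p = 4.45e-07), without the low-count filter (0.039) and in a fit of the compared groups alone (7.04e-06).

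Ribosomal protein mRNAs differed between the strains in their list medians. The median log2 ratio of the large-subunit genes was -0.42 in the RPL22B deletion, -0.81 in the wild type and -1.53 in the RPL22A deletion, and that of the small-subunit genes was -0.28, -0.66 and -1.28. Against the RPL22A deletion all 77 tested large-subunit genes other than the deleted RPL22B had the higher ratio in the RPL22B deletion (median difference 1.0), and 56 of 57 small-subunit genes did (median difference 0.80). The median difference of all tested genes was -0.08, and their share with a higher ratio was not worked out. Genes of a list share the same libraries and are not replicates. Of the 77 and 57 genes, 27 and 10 had an unadjusted p under 0.05 (edgeR), against 6.5% of all tested genes. After adjustment over all genes 0 passed (edgeR), while RPP0 passed with DESeq2 (adjusted p = 0.017). In a fit of the compared groups alone edgeR called 5 of these ribosomal protein genes, RPP0 (adjusted p = 0.025), RPP1B (0.039), RPP2B (0.049), RPS14A (0.032) and RPL33A (0.0037). Without the low-count filter it called RPL33A (0.029). RPL33A was of low level in the RPL22B deletion, at a mean of 31.0 CPM in heavy polysomes and 16.3 CPM in monosomes (log2 ratio 1.04 ± 0.98). Its paralog RPL33B stood at 1088 and 2113 CPM there (log2 ratio -0.96 ± 0.43). With relative log expression scaling the median differences were 1.0 and 0.80, and with the ribosomal DNA rows kept 1.07 and 0.87. The correlation of length and ratio also ran from 0.39 in the RPL22B deletion through 0.45 in the wild type to 0.64 in the RPL22A deletion. Single pairings of libraries gave 0.303 to 0.517 in the wild type, which overlaps the 0.290 to 0.395 of the RPL22B deletion, and 0.518 to 0.646 in the RPL22A deletion, which does not. The median of the class of up to 100 residues did not follow this order, at -1.23, -1.58 and -1.39. Monosome libraries held 468906 and 314212 counts outside the ribosomal DNA in the RPL22B deletion. They held 1552601 and 385464 in the wild type and 996947 and 558482 in the RPL22A deletion. The part of depth in these correlations was not tested.

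**Figure D5:**
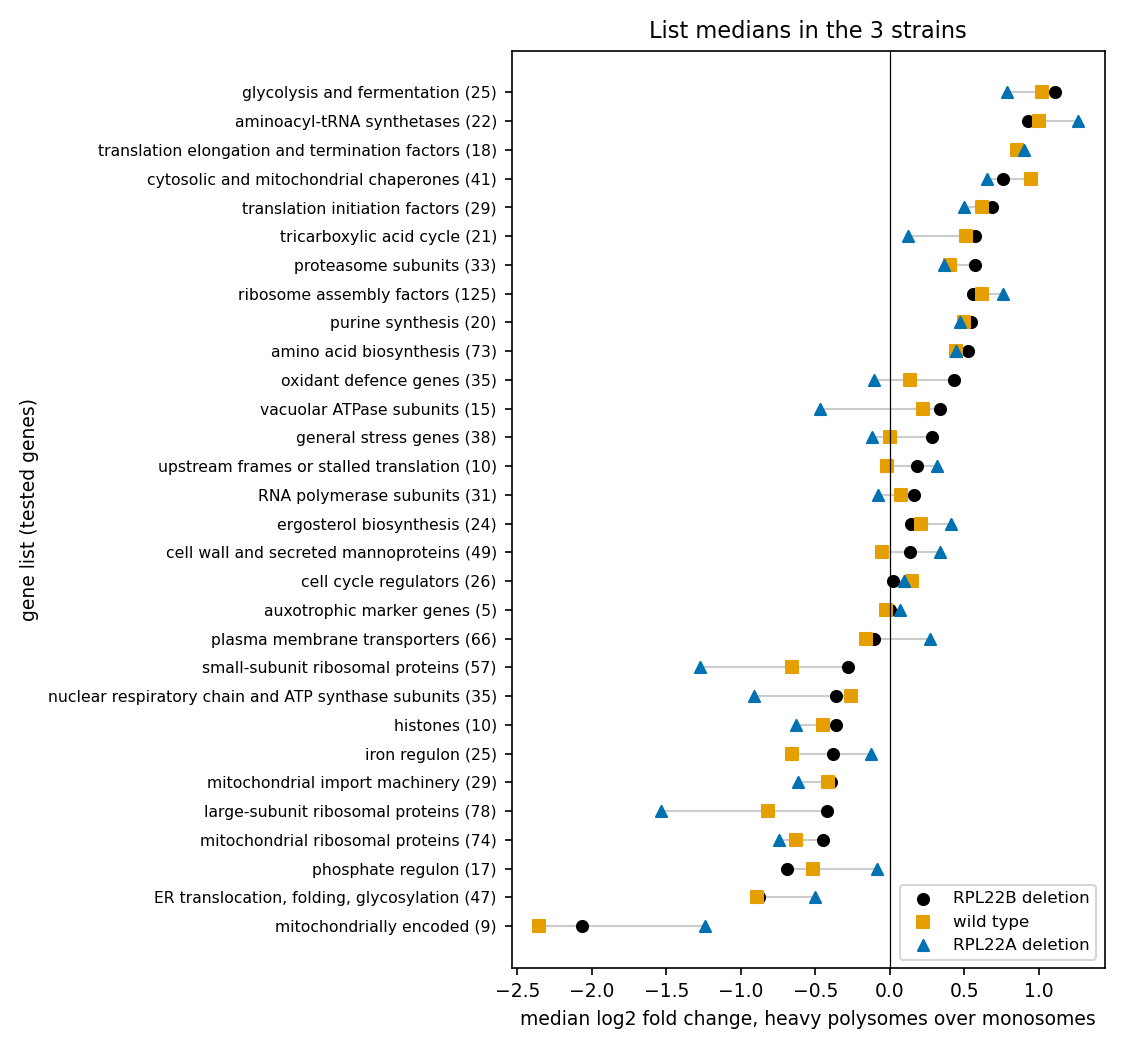
Median log2 fold change of heavy polysomes over monosomes for gene lists with at least 5 tested members (rows, tested genes in brackets; the a-specific list, near 0 counts here, is left out) in the RPL22B deletion (circles), wild type (squares) and RPL22A deletion (triangles). The large-subunit ribosomal proteins lie at -0.42, -0.81 and -1.53 in these strains, while glycolysis and the synthetases are above 0 in all 3.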

How the data were processed

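The authors deposited a table of whole-number counts of reads per gene (6369 rows, 24 libraries), not normalized. Per the series design, the reads of each barcode come from 2 merged lanes. Per the submitters' processing notes, RSEM 1.2.18, SAMtools 0.1.19, cutadapt 1.4 and the build sacCer3 were used, in steps the notes do not tie to a tool. No source used here gives the counting of multiply matching reads or the use of strand, so that paralogs and overlapping genes are uncertain.

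Here 7 rows of the ribosomal DNA locus were left out of library sizes, filter and fit. Genes passing filterByExpr (minimum count 10, minimum total 15; 5258 genes) were scaled by TMM, and 1 model with 12 group means was fitted to all 24 libraries with edgeR 4.0.16 in R 4.3.3 (12 residual degrees of freedom, prior 18.2). Contrasts were tested with the quasi-likelihood F-test and Benjamini-Hochberg adjustment over all tested genes at 0.05. The test script was tested on simulated data. Standard errors were obtained as the size of a log2 fold change over the root of its F statistic. P-values rest on the spread between duplicates, called biological in the series design and pooled over all 12 groups. The duplicates of the 2 groups compared differed by more than sampling noise (chi-square per degree of freedom 3.15 and 2.35), so that each library counts as 1 replicate. Other groups in the pooled spread ran from 1.835 (RPL22B deletion, input) to 34.33 (RPL22B deletion, light polysomes) on this measure.

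The members and the 32 gene lists were chosen with earlier results of these data known. Named genes are RPL22A and RPL22B, the 10 called genes that rose most and the 10 that fell most (averaging 50 CPM or more, fractions not overlapping), up to 4 called members of each list with the smallest adjusted p, the 5 shortest and 5 longest frames, the list of upstream frames, and the smallest p of the differences between strains; exceptions are stated. Reading frames and lengths come from RefSeq R64, which matched 5908 rows, and no coordinates were converted. Alternatives were other scalings, no low-count filter, the ribosomal DNA rows kept, DESeq2 1.42.0, fits of the compared groups alone, a replicate block and leaving out each library.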

Additional observations from a re-analysis of the deposited data

How the results depend on the processing

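The 850 calls of heavy polysomes against monosomes became 254 to 447 when 1 of the 4 libraries was left out, with 1 library then standing for its group, and 1392 in a fit of the 4 libraries alone. They were 712 with DESeq2, 911 without the low-count filter, 808 with the ribosomal DNA rows kept, 834 with relative log expression scaling (389 higher, 445 lower) and 849 with TMM from other genes. The tested genes differed too, so that these counts are not shares of 1 set. The fit of the 4 libraries alone tested 3504 genes, against 5258 in the main fit. The fit without the filter tested 6362, that with ribosomal DNA rows 5380, and those without 1 library 5371 to 5398. The correlation with protein length was 0.3235 to 0.3973 in the 4 fits without 1 library. Of 122 called named genes 60 kept their call in those 4 fits and 118 in the other settings, and 0 reversed; of the list medians 1 reversed, ergosterol biosynthesis, which ranged from -0.0368 (without heavy replicate 2) to 0.2924 (without monosome replicate 1). For the difference from the wild type the count of 0 became 1 with DESeq2, without the low-count filter, with the compared groups alone and with the crossed block. For the difference from the RPL22A deletion it became 5 with DESeq2, 2 without the filter and 19 with the compared groups alone. The fits of the compared groups alone tested 4157 genes against the wild type and 4280 against the RPL22A deletion. The cause of these changes was not tested. Deviations of same-numbered libraries correlated with r = 0.0196 in the RPL22B deletion, -0.0318 in the RPL22A deletion and -0.121 in the wild type. A replicate block gave 811 calls. The deviations include counting noise, so that these correlations cannot show whether same-numbered libraries were paired. Depth limits genes of low level, since the monosome libraries held 468906 and 314212 counts outside the ribosomal DNA.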

Other observations

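Of 17 tested genes of the phosphate regulon, which serve phosphate uptake and release, 7 fell and 2 rose (41.2% lower, against 8.01% of all tested genes; median log2 ratio -0.69). PHO5, for the main secreted acid phosphatase, was at 172.4 and 172.2 CPM in heavy polysomes and 744 and 354 CPM in monosomes (log2 ratio -1.68 ± 0.34; edgeR adjusted p = 0.0013), with counts that its paralogs PHO3 and PHO12 may share, and lost its call without monosome replicate 1 (adjusted p = 0.10). Of the 9 calls of the list 0 held in all 4 fits without 1 library. Of 66 tested plasma membrane transporters 5 rose and 6 fell (7.58% and 9.09%, about the 8.16% and 8.01% of all tested genes; median -0.11). SNQ2, for a drug pump of 1501 residues, was at 101.4 and 128 CPM in heavy polysomes against 40.6 and 24.0 CPM (log2 ratio 1.79 ± 0.37), and JEN1, for the lactate transporter of 616 residues, at 4.06 and 7.42 CPM against 49.2 and 45.0 CPM (log2 ratio -2.96 ± 0.64; edgeR adjusted p = 0.0023).

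IMP21 was the rise second to ADH2 among called genes averaging 50 CPM or more, at 694 and 433 CPM in heavy polysomes and 42.7 and 60.0 CPM in monosomes (log2 ratio 3.47 ± 0.36; edgeR adjusted p = 5.23e-07). Its log2 ratio was 3.49 in the wild type and 2.98 in the RPL22A deletion. SKP1, for a subunit of SCF ubiquitin ligases with 194 residues, was at 381 and 286 CPM against 81.2 and 69 CPM (log2 ratio 2.14 ± 0.41), a rise of a short frame. YNL208W was at 2035 and 1198 CPM against 327 and 363 CPM (log2 ratio 2.23 ± 0.40). Of the 64 tested rows with no match in RefSeq 11 fell and 1 rose, against 8.01% and 8.16% of all tested genes. The row YGL102C was among them, at 6.09 and 4.45 CPM in heavy polysomes and 122 and 75 CPM in monosomes (log2 ratio -4.24 ± 0.48).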
